A study of Mus musculus with 29 samples.

Results

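The longest windows of a lung methylation table were examined. The table, from whole-genome enzymatic methyl-sequencing (WGMS), gave a percent DNA methylation (%DNAm) for 260686 windows that overlap genes, in 29 libraries. On chromosomes 1 to 19, 483 windows were at least 20000 bp long from their first to their last base, and 303 of these had a value in all 29 libraries and form the set described here. They carried 279 gene names and made up a small part of the 250325 complete autosomal windows. The other 180 lacked a value in a median of 20 libraries, and 28 of them had no value in any library. Length and completeness chose the windows, and no methylation level did.

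DNA came from homogenised lung (Lung (RML) in the labels) of Balb/c mice, given as females aged 13 weeks, with no genetic modification named. Their dams had received saline (Sham) or PM2.5, fine airborne particulate matter (PM), through the nose before mating, in gestation and up to weaning. The offspring were given buffer (PBS in the labels), forming the Sham (n = 7) and PM (n = 7) groups, or were sensitised and challenged with ovalbumin (OVA), an egg-white allergen that inflames the airways of sensitised mice, forming Sham-OVA (n = 7) and PM-OVA (n = 8). The 8 PM-OVA libraries included 2, replicates 7 and 8, whose names differ in form from the rest. The labels do not tie libraries to litters, so the p-values measure the spread between these libraries. Lung tissue mixes many cell types, and a shift in the mixture and a shift within a cell type cannot be told apart in such DNA.

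Each window was laid out by counting CpG sites, so its length is set by how far apart these lie. CpG sites are scarce in mammalian DNA because a methylated cytosine readily mutates to thymine. The scarcest stretches tend to lie in gene-poor, late-replicating chromatin, where isolated CpGs flanked by A or T gradually lose methylation over cell divisions and form partially methylated domains. A long window can also arise in other ways, since unsequenced gaps in an assembly add length without CpGs, and CpGs in repeated copies of a gene family are hard to call because reads cannot be placed among the copies.

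The sequence of GRCm38, which is that of a C57BL/6J mouse, separated the 303 windows into 4 kinds. Of all complete autosomal windows, 89.4% held exactly 50 CpG dinucleotides (100 cytosines over both strands) and none held fewer, whereas the 303 windows held a median of 105 and up to 1062. Only 37 windows had 50 to 52 CpGs and no gap, and these are called CpG-sparse. A further 47 windows contained an assembly gap. The other 219 held surplus CpGs, more than 52. In 138 of these at least 50% of the CpGs sat in a 100-base stretch that recurs exactly elsewhere in the genome (multicopy windows), and in 81 fewer did (largely single-copy windows). The cuts between the kinds were set after the sequence features had been seen, and no methylation value entered them.

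The stretches below show what the kinds look like in sequence, since a window of 50 CpGs and one of 1062 received the same kind of score. Each is the 200 bases with the most CpGs in its window outside exons and gaps, on the plus strand of GRCm38, with every CpG in capitals. The Plxna2 and Cd53 stretches are from CpG-sparse windows, the Traf5 stretch is from a gap window, and the others are from windows with surplus CpGs.
Plxna2, chr1:194733494-194733693, intron of Plxna2: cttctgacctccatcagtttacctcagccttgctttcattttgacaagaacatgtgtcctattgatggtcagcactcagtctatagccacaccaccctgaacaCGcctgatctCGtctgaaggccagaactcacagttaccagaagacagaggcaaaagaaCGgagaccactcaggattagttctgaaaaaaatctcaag
Cd53, chr3:106753164-106753363, beyond the end of Cd53 and in no annotated gene: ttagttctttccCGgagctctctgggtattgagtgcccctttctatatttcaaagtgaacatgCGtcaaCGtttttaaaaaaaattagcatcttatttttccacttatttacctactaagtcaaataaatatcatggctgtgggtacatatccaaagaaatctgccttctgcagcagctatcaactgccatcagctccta
Traf5, chr1:192052569-192052768, intron of Traf5: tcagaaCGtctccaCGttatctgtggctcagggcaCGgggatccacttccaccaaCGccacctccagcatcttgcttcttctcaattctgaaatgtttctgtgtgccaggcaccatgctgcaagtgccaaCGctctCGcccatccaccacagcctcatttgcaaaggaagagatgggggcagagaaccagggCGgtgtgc
Skint5, chr4:113836505-113836704, intron of Skint5: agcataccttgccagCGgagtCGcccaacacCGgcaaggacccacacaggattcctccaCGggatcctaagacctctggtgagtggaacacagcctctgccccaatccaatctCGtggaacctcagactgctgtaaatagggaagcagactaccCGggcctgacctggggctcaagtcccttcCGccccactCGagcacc
Gm16677, chr14:69337293-69337492, intron of Entpd4: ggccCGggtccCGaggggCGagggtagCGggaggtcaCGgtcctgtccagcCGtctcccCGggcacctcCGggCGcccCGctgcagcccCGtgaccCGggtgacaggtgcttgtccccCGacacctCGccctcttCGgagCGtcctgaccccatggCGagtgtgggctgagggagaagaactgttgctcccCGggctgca
Cphx3, chr14:26238586-26238785, in no annotated gene: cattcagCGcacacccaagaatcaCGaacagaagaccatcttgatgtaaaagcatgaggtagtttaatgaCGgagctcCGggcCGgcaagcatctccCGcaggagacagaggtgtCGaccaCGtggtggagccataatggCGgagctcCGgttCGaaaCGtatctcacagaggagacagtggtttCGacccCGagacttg

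Even the densest 200 bases of the Plxna2 and Cd53 windows held 3 CpGs, against 7 in Traf5, 8 in Skint5, 14 in Cphx3 and 18 in Gm16677. The Gm16677 stretch occurred 2 times in the assembly and the Cphx3 stretch 3 times, whereas each of the others occurred 1 time. The window named for Gm16677, a long noncoding RNA, overlapped 5 annotated genes, so the name in the table can be 1 of several.

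**Figure D1:**
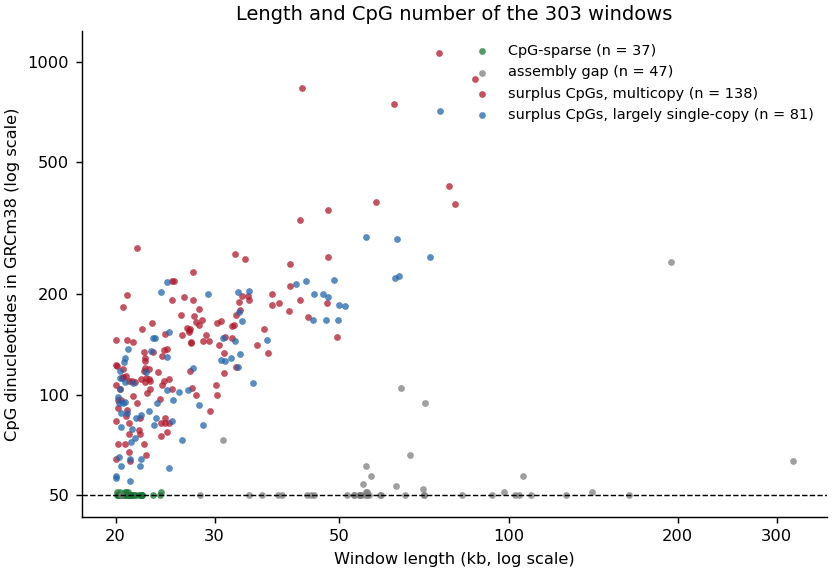
Window length in kilobases (x axis, log scale) against the number of CpG dinucleotides in GRCm38 (y axis, log scale) for the 303 windows, coloured by kind, with a dashed line at 50 CpGs. The CpG-sparse windows sit on the line at 20.1 to 24.1 kb, 36 of the 47 gap windows lie on or just above it at greater lengths, and the windows with surplus CpGs rise above it up to 1062 CpGs.

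By density, the largely single-copy (median 4.10 CpGs per kb of sequence) and multicopy windows (5.17) were also CpG-poor against all complete autosomal windows. The 37 CpG-sparse windows had the lowest median of the kinds. Their low density, and with it wide spacing between CpGs, was set by the definition of the kind. The CpG-sparse windows were 20131 to 24074 bp long and had a median of 2.41 CpGs per kb of sequence, compared with 4.34 in complete windows of 10 to 20 kb and 10.7 in all complete autosomal windows. A median of 82.0% of their CpGs had no other CpG within 35 bp (42.0% in all complete autosomal windows), and a median of 40.0% had A or T on both sides (26.0% in all). GC content was a median of 36.8%, against 44.5% in all. The windows were partly genic, with 15 of 37 lying wholly inside a gene (80.0% of all complete autosomal windows). Their names included the genes Cntnap5a, Cntnap5b, Sgcz, Grik2 and Ptprd, and 11 chemosensory receptor genes.

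Gap windows were long for another reason. A median of 89.8% of their length was unsequenced, and the sequenced part had a median of 6412 bp and 8.22 CpGs per kb, close to ordinary windows. The 3 longest of all 303 windows were of this kind. Mup-ps9, a pseudogene of the major urinary proteins, reached 320320 bp with 63 CpGs, the amylase gene Amy2a2 194275 bp with 251 CpGs, and the zinc finger gene Zfp986 164068 bp with 50 CpGs. Of the 47, 31 lay wholly inside a gene.

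The 138 multicopy windows had a median of 136.5 CpGs. A median of 93.2% recurred elsewhere, where the definition of the kind required at least 50%. Over every 20th complete autosomal window the recurring share had a median of 0% and a mean of 3.58%. The 81 largely single-copy windows had a median of 120 CpGs with 5.85% recurring. These windows came in blocks. Placing windows within 1000000 bp of each other in one block, 14 blocks of at least 5 windows held 131 of the 303, and chromosomes 7, 14 and 4 held 60, 47 and 42. Several of the largest blocks lay over tandem gene families. They included 17 windows in the region of the Skint genes, a family named for a gene that selects skin T cells, on chromosome 4, and 12 in that of the immunoglobulin heavy chain variable genes on chromosome 12. Others were 14 windows among vomeronasal (pheromone) receptors on chromosome 7, 10 among T cell receptor alpha variable genes on chromosome 14, and 11 among major urinary proteins on chromosome 4. Predicted genes named Gm accounted for 119 of the 303 windows.

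Methylation without challenge differed between the kinds. In Sham, the median window stood at 69.6% in the CpG-sparse, 76.3% in the gap, 69.0% in the multicopy and 50.7% in the largely single-copy kind, compared with 75.6% in windows of 10 to 20 kb and 76.9% in all complete autosomal windows. The CpG-sparse windows spanned 56.5% to 83.0%. The largely single-copy windows had the widest middle range, with quartiles at 38.5% and 67.2%. Of these, the 52 windows in which fewer than 10% of CpGs recurred had a median of 45.4%. The median of the 303 was 67.6%.

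The 3 genes with the lowest windows all held surplus CpGs. Gm16677 (chr14:69316465-69391715), with 99.5% of its 1062 CpGs recurring, ranged from 3.4% to 29.3% in Sham with a median of 11.8%, and from 0.0% to 25.5% in Sham-OVA. Skint5 (chr4:113788890-113836720), intronic but for 315 exonic bases, ranged from 17.9% to 26.8% in Sham and from 18.2% to 39.6% in PM. Gm12813 (chr4:113391939-113412336), a pseudogene in the same block, ranged from 18.8% to 25.8% in Sham and 20.5% to 27.3% in PM. Sham and PM overlapped in each of these windows, and so did each of them with its challenged group.

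The 2 lowest of the families examined were immune-related, but levels this low were not particular to them. A block of 11 windows on chromosome 7, with names such as Gm4451 and Gm6819, had a Sham median of 40.7%. The 14 Skint windows had a Sham median of 41.1%, and 23 shorter windows with Skint names stood higher. The 10 windows of immunoglobulin heavy chain variable genes, the segments joined in B cells, stood at a median of 39.6% (28.9% to 45.2%), and 116 shorter windows of that family at 50.1%. T cell receptor variable windows had a median of 57.5% (9 windows), vomeronasal receptor windows 63.7% (23), major urinary protein windows 66.3% (10) and olfactory receptor windows 66.2% (13). The shorter windows of these families stood at 61.6%, 72.5%, 77.4% and 73.4%. The families were picked after their values had been seen, and windows of one family share sequence.

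At the upper end were Atp6v0a2 (chr5:124646398-124711722), a subunit of the proton pump that acidifies vesicles, Dock2 (chr11:34541040-34681849), an exchange factor for leucocyte migration, and the olfactory receptor gene Olfr1506 (chr2:90221442-90248913). The Atp6v0a2 window ranged from 88.7% to 93.3% in Sham (median 91.5%), Dock2 from 85.1% to 90.4% (median 89.0%) and Olfr1506 from 81.4% to 94.5% (median 89.4%). The first 2 were gap windows with 3325 and 4212 sequenced bases, so the values belong to short stretches inside these genes. All CpGs of Olfr1506 recurred elsewhere.

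Spread between libraries was wider in the windows with surplus CpGs. The within-group standard deviation (SD) of a window was the root mean square of its 4 group SDs, and its median was 1.57 percentage points in CpG-sparse, 1.55 in gap, 4.80 in multicopy and 2.98 in largely single-copy windows, against 1.52 in windows of 10 to 20 kb and 1.47 in all complete autosomal windows. It exceeded 5 points in 89 of the 303 windows (29.4%), of which 65 were multicopy, 23 largely single-copy, 1 a gap window and 0 CpG-sparse, and in 0.376% of all complete autosomal windows. Across the 303 windows, the SD was correlated with the share of recurring CpGs (Pearson r = 0.55, Spearman rho = 0.67) and with the number of CpGs (0.39 and 0.68), which is a description, since all windows come from the same 29 libraries. Within the multicopy kind the rho values were 0.34 and 0.15, and within the largely single-copy kind 0.51 and 0.62. The most variable window, Skint5 (chr4:113731432-113764660), ran from 8.3% to 43.5% among the 7 Sham libraries. The number of CpGs called per window and library is not in the table, so how far this number moves with the SD was not tested.

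**Figure D2:**
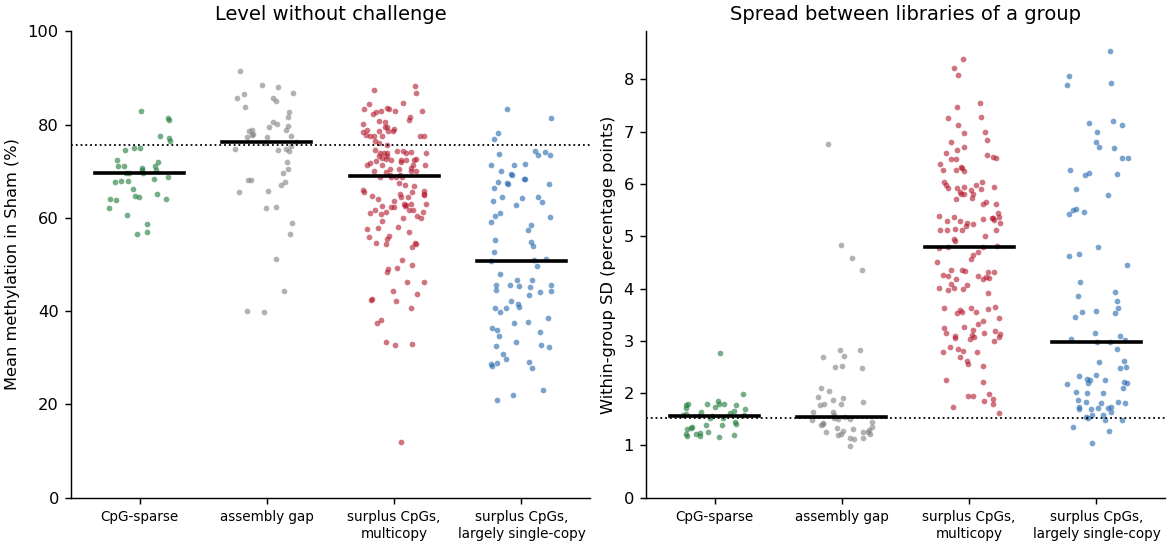
Mean methylation in Sham (left, percent) and within-group SD (right, percentage points) of each of the 303 windows by kind. Points are windows, black bars are medians and dotted lines are the medians of complete autosomal windows of 10 to 20 kb. Largely single-copy windows with surplus CpGs reach the lowest levels as a group, and both kinds with surplus CpGs spread above the dotted SD line while CpG-sparse and most gap windows stay near it.

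The windows nearest the length limit are given as values. Gm37752 (20005 bp, 123 CpGs) stood at 65.9% in Sham and Trav7d-6 (20016 bp, 146 CpGs) at 57.8%. Just under the limit, Vmn2r-ps128 (19991 bp, 62 CpGs) stood at 76.3% and Gm49815 (19972 bp, 50 CpGs) at 62.2%.

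One library stood apart before any comparison. Sham replicate 1 had a value in 1224 of 1230 windows on the Y chromosome, against 29 to 46 in the other 28 libraries, although the series describes females. The windows examined here are autosomal, and the counts of calls for OVA in Sham are given with and without it, over the 303 windows and by kind. Between 258952 and 260135 windows of the table had a value per library, and read depth is not given there, so no counting error can be stated for a single value.

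The first question was what the OVA challenge did in offspring of Sham dams. Methylation of the 303 windows was slightly lower after challenge. The mean over the windows was 63.9% ± 0.625 (SD, n = 7) in Sham, with libraries from 62.9% to 64.9%, and 62.7% ± 0.775 (n = 7) in Sham-OVA, with libraries from 61.6% to 63.6%, a difference of -1.21 points in which the groups overlapped. Over all complete autosomal windows the difference was -0.30 points and over those of 10 to 20 kb it was -1.57. By kind it was -2.02 points in CpG-sparse, -1.41 in multicopy, -0.80 in largely single-copy and -0.67 in gap windows.

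In the fit of limma over all 259167 tested windows, 45 of the 303 (14.9%) passed an adjusted p of 0.05 for OVA in Sham, against 35.6% of all tested windows. Of the 45, 40 fell and 5 rose, where 22.3% of all tested windows fell and 13.3% rose. With centred libraries, 32 fell and 7 rose, beside 18.4% lower and 18.5% higher of all tested windows. The CpG-sparse kind gave 17 of 37 (16 lower, 1 higher), the gap kind 8 of 47, the multicopy kind 12 of 138 and the largely single-copy kind 8 of 81. Without Sham replicate 1, 41 windows passed, beside 85159 of 259154 tested windows. The 41 were 15 CpG-sparse, 6 gap, 11 multicopy and 9 largely single-copy windows. With the additional minimum of 10 points that defines a differentially methylated region (DMR), 0 windows were called, against 0.775% of all tested windows, and 69 of the 303 reached an unadjusted p under 0.05, against 45.0% of all tested windows.

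In offspring of PM dams, the challenge was followed by the same direction. The mean over the 303 windows was 63.9% ± 0.580 (SD, n = 7) in PM, with libraries from 62.8% to 64.7%, and 61.9% ± 0.562 (n = 8) in PM-OVA, with libraries from 61.4% to 63.0%. The difference was -1.93 points with a narrow overlap, compared with -0.96 over all complete autosomal windows and -2.34 over those of 10 to 20 kb. It was -2.64 points in CpG-sparse, -2.32 in multicopy, -1.39 in largely single-copy and -1.16 in gap windows. With centred libraries these became -1.66, -1.34, -0.41 and -0.18 points, and those for OVA in Sham -1.62, -1.02, -0.41 and -0.28 points. Over the 37 CpG-sparse windows the groups did not overlap, with PM libraries at 67.7% to 70.6% and PM-OVA libraries at 66.1% to 67.6%. The same held over windows of 10 to 20 kb, with PM libraries at 73.8% to 75.9% and PM-OVA libraries at 72.0% to 73.5%.

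For OVA in PM, 82 of the 303 windows (27.1%) passed an adjusted p of 0.05 in limma, against 44.1% of all tested windows, and 79 fell and 3 rose, where 34.8% of all tested windows fell and 9.26% rose. The counts by kind were 24 of 37 CpG-sparse (23 lower, 1 higher), 15 of 47 gap, 25 of 138 multicopy and 18 of 81 largely single-copy windows. After each library had been centred on its median over all windows, 53 of the 303 passed, of which 45 fell and 8 rose, and of all tested windows 42.2% passed, with 20.4% lower and 21.8% higher. A DMR was called in 3 windows, all multicopy, against 0.584% of all tested windows, and 105 of the 303 had an unadjusted p under 0.05, against 51.4%. The share of CpG-sparse windows that passed was 45.9% for OVA in Sham and 64.9% for OVA in PM, and the shares of the other kinds were below those of all tested windows. With centred libraries the CpG-sparse shares, both directions together, were 35.1% and 43.2%, beside 36.9% and 42.2% of all tested windows, so the share of the CpG-sparse kind was under that of all tested windows for OVA in Sham and close to it for OVA in PM.

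**Figure D3:**
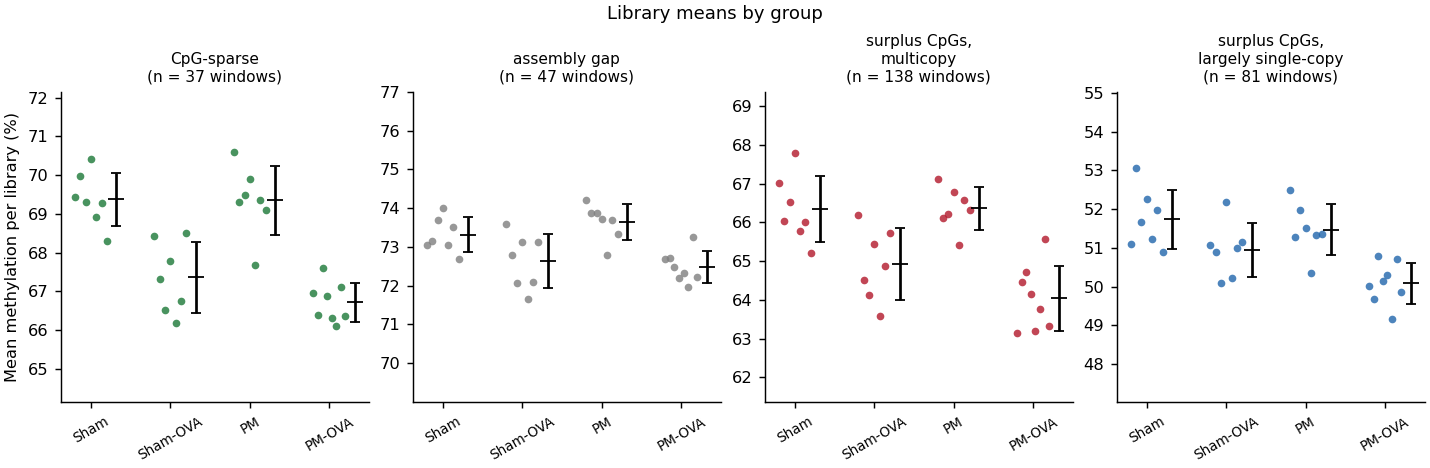
Mean methylation per library (y axis, percent, each panel spanning 8 points around its own mean) over the windows of each kind, by group. Points are libraries, and black bars are the group mean with its SD. Challenged groups sit lower than their unchallenged counterparts in each panel, by 2.02 and 2.64 points in the CpG-sparse windows and by 0.67 and 1.16 points in the gap windows.

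Complete autosomal windows of other lengths give the scale for these shares. In windows under 2000 bp, the densest in CpGs, the median difference was 0.15 points for OVA in Sham and 0.07 for OVA in PM, and 26.3% and 25.1% of windows passed. In windows of 10 to 20 kb the medians were -1.60 and -2.37 points, and 38.1% and 61.2% passed. The 303 windows had medians of -1.27 and -1.82 points, with 14.9% and 27.1% passing.

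The mean methylation of marker genes of leucocytes and of structural lung cells was taken beside these values. Over 123 windows of 20 leucocyte marker genes, the mean lay at 67.3% to 68.4% in Sham and 65.3% to 66.8% in Sham-OVA, and at 67.7% to 68.8% in PM and 65.5% to 66.4% in PM-OVA, differences of -1.95 and -2.30 points without overlap. Over 174 windows of 20 epithelial, endothelial and mesenchymal marker genes, it lay at 61.3% to 63.0% in Sham, 62.5% to 64.2% in Sham-OVA, 61.3% to 63.8% in PM and 62.0% to 63.8% in PM-OVA, differences of 1.39 and 0.36 points with overlap in both. None of these windows was among the 303. The part of cell composition in the OVA differences was not tested.

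Of the CpG-sparse windows, Plxna2 fell the most. Plxna2 encodes a plexin, a receptor for semaphorin guidance cues, and its window (chr1:194720859-194741647) lies inside the gene with 532 exonic bases. It ranged from 80.5% to 82.2% in Sham (median 81.6%) and from 71.9% to 79.6% in Sham-OVA (median 75.1%), and from 79.6% to 82.4% in PM (median 81.7%) and 71.4% to 75.5% in PM-OVA (median 73.7%). Challenged and unchallenged groups did not overlap in either kind of offspring. The differences were -6.69 and -7.40 points, or -0.54 ± 0.07 and -0.59 ± 0.06 (SE) on the log2 scale of methylated over unmethylated signal, with adjusted p of 5.2e-07 and 5.4e-08 by limma. The 20 other tested windows of Plxna2, with a median length of 11238 bp, had median differences of -2.93 and -4.22 points, and 13 fell in each comparison.

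Grik2, a kainate-type glutamate receptor subunit, gave a like pattern. Its window (chr10:49354402-49374973) is intronic but for 207 exonic bases. It had a Sham range of 74.9% to 81.0% (median 77.1%), a Sham-OVA range of 69.7% to 75.3% (median 72.9%), a PM range of 75.9% to 79.5% (median 77.8%) and a PM-OVA range of 70.1% to 73.3% (median 72.0%). PM and PM-OVA did not overlap, and Sham and Sham-OVA overlapped slightly. The differences were -4.50 points for OVA in Sham (adjusted p = 0.00020, limma) and -6.18 for OVA in PM (1.6e-06). Of 56 other Grik2 windows, 39 fell for OVA in Sham and 49 for OVA in PM.

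Cd53 went the other way. It encodes a tetraspanin of leucocyte membranes, and its window (chr3:106751665-106775616), with 65.5% of its bases in the gene, covers the end of the gene and the sequence beyond. It ranged from 72.9% to 76.6% in Sham (median 75.2%), 74.9% to 83.3% in Sham-OVA (median 80.0%), 73.0% to 76.8% in PM (median 75.0%) and 77.8% to 80.9% in PM-OVA (median 79.9%). The PM and PM-OVA groups did not overlap, and 6 of 7 Sham-OVA libraries lay above the Sham mean. The differences were 4.54 and 4.47 points, with adjusted p of 0.00039 and 0.00028 by limma. It was the only CpG-sparse window called higher. The 2 other Cd53 windows differed by -3.26 and 2.25 points for OVA in Sham, of which 1 fell and 1 rose, and by -4.85 and 1.27 points for OVA in PM, of which 1 fell.

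**Figure D4:**
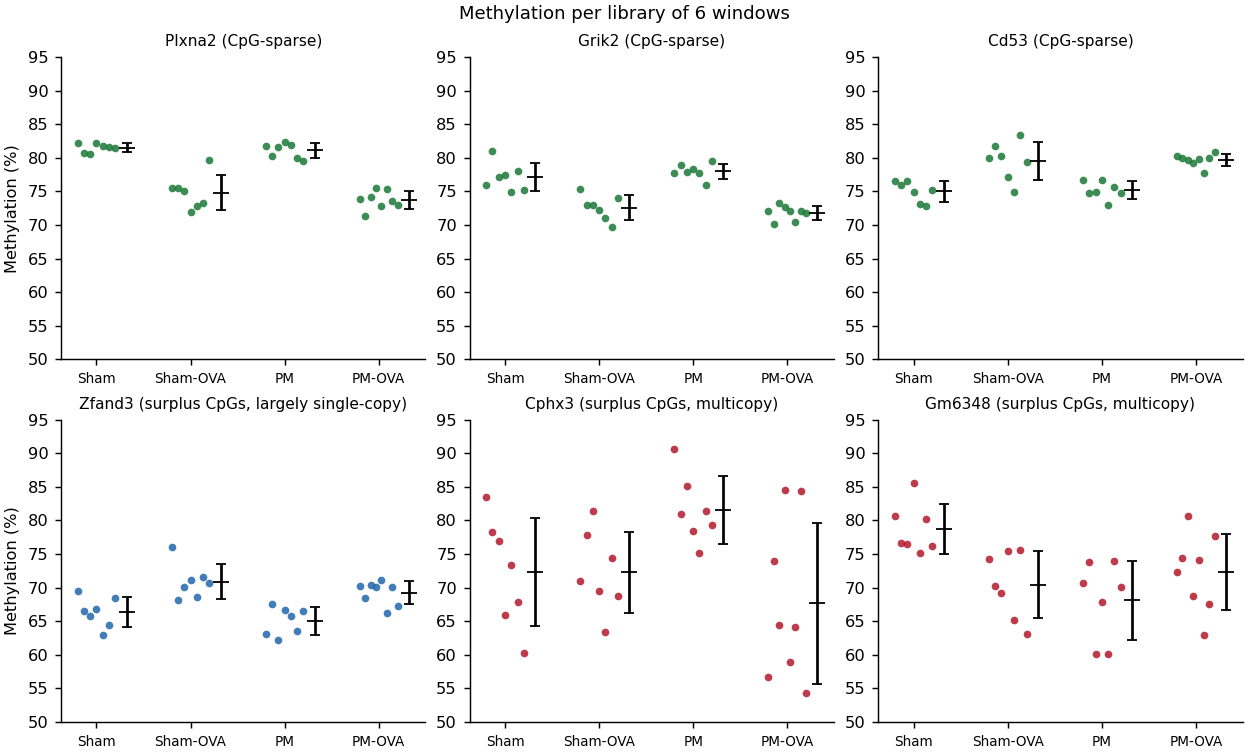
Methylation per library (y axis, percent, from 50 to 95) by group in 3 CpG-sparse windows (Plxna2, Grik2, Cd53), 1 largely single-copy window (Zfand3) and 2 multicopy windows (Cphx3, Gm6348). Points are libraries and black bars are group means with SD. The Plxna2 and Grik2 libraries fall and the Cd53 and Zfand3 libraries rise in both challenged groups, while the Cphx3 libraries of PM-OVA spread from 54.3% to 84.5%.

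Outside the CpG-sparse kind, rises for OVA in Sham were seen in 4 windows. Zfand3 (chr17:30084100-30159522), a zinc finger gene, had 713 CpGs of which 0.56% recurred. It ranged from 62.9% to 69.5% in Sham, 68.1% to 76.0% in Sham-OVA, 62.2% to 67.6% in PM and 66.1% to 71.1% in PM-OVA. Every challenged library lay above the mean of its unchallenged group, with differences of 4.54 and 4.18 points (adjusted p = 0.0026 and 0.0039, limma). Of 30 other Zfand3 windows, 19 rose for OVA in Sham and 14 for OVA in PM.

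The gap window of Mest, an imprinted hydrolase gene, ranged from 73.9% to 79.3% in Sham and from 76.6% to 83.3% in Sham-OVA, a difference of 4.18 points (adjusted p = 0.0011), and its difference in PM was 2.08 points (0.066). Of the 9 other Mest windows, 1 rose and 1 fell for OVA in Sham. Its 6084 sequenced bases overlapped 2 genes. Pstpip2, an adaptor of the myeloid cytoskeleton, ranged from 65.1% to 74.3% in Sham and from 70.8% to 74.2% in Sham-OVA, with differences of 4.36 points (0.011) and 2.70 points (0.084). Of its 23 other windows, 7 fell and 1 rose for OVA in Sham and 9 fell and 0 rose for OVA in PM, and the rest did not pass. Gm4070 (chr7:105918590-105940662, multicopy) ranged from 71.6% to 79.9% in Sham and 81.2% to 93.1% in Sham-OVA without overlap, a difference of 6.88 points (0.015), and its difference in PM was 4.04 points (0.12). For OVA in PM the third window that rose, beside Cd53 and Zfand3, was the gap window 2700054A10Rik (chr17:13586748-13657303), at 40.7% to 45.9% in PM and 40.8% to 52.2% in PM-OVA, a difference of 4.03 points (0.025). Of the 24 other 2700054A10Rik windows, 18 fell and 1 rose for OVA in PM. The call of the gap window ended without PM-OVA replicate 1, 2 or 7 or PM replicate 2 or 3 (adjusted p from 0.052 to 0.063), and without PM-OVA replicates 7 and 8 together (0.084).

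The largest falls in percent came from multicopy windows. For OVA in Sham they were Gm16427 (chr5:93518632-93555439, -8.93 points, adjusted p = 0.020), Gm6348 (chr5:95603265-95642280, -8.27, 0.0087), Gm3020 (chr14:3671782-3712516, -8.23, 0.015) and Gm15922 (chr7:3720560-3749515, -7.79, 0.038), all by limma. Gm16427 ranged from 59.2% to 73.1% in Sham and 43.3% to 60.0% in Sham-OVA, and Gm6348 from 75.1% to 85.6% and 63.1% to 75.6%. Each of the 7 Sham-OVA libraries lay below the Sham mean in all 4 windows, and the groups overlapped in all 4.

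None of these 4 windows was called for OVA in PM, where the differences were -2.61, 4.22, -1.83 and 1.93 points. Their interaction did not pass an adjusted p of 0.05 either, so a difference between the kinds of offspring was not shown. The call of Gm16427 ended without Sham-OVA replicate 2 or Sham replicate 7 (adjusted p = 0.059 and 0.057). That of Gm15922 ended without Sham-OVA replicate 3, 4, 5 or 6 or Sham replicate 1, 4, 5 or 6 (adjusted p from 0.068 to 0.097), and with a robust prior that follows the mean level (0.053).

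For OVA in PM, the 5 largest falls were also multicopy windows, all on chromosome 14. Cphx3 (chr14:26206501-26293790), named for a homeobox gene, had 891 CpGs of which 98.8% recurred. It ranged from 75.1% to 90.6% in PM (median 80.9%) and from 54.3% to 84.5% in PM-OVA (median 64.3%). The difference was -13.91 points (adjusted p = 0.0078, limma), while Sham and Sham-OVA both had a mean of 72.3%. PM differed from Sham by 9.25 points and PM-OVA from Sham-OVA by -4.66 points (adjusted p = 0.84 and 0.93, limma). Its interaction did not pass either (0.65), so a difference between the kinds of offspring was not shown. In PM-OVA, 6 of 8 libraries were under the mean of PM. Gm10409 (chr14:3414474-3443824) went from 68.8% to 82.6% in PM to 56.8% to 73.9% in PM-OVA (-10.72 points, 0.0056). Plac9a (chr14:25891832-25913661) went from 68.6% to 82.9% to 56.2% to 71.6% (-10.15 points, 0.018). These 3 were the DMRs, and the groups overlapped in each. With centred libraries 1 DMR was left, and with the stricter adjusted p limit of 1e-06, which the study's methods set for a count test, 0 were.

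Gm3500 (chr14:5358305-5383506) and Gm6676 (chr14:7105710-7129851) differed by -8.39 points (adjusted p = 0.031) and -8.32 points (0.0042) for OVA in PM. The call of Gm3500 ended without PM-OVA replicate 2 or 5 or PM replicate 2, 3 or 7 (adjusted p from 0.051 to 0.086), without PM-OVA replicates 7 and 8 together (0.072) and with centred libraries (0.053). In Sham offspring, Gm10409, Plac9a, Gm3500 and Gm6676 differed by -4.56, -6.32, -0.58 and -1.23 points, with adjusted p from 0.21 to 0.98. Their interaction did not pass, so a difference between the kinds of offspring was not shown here either. All CpGs of Gm3500 and at least 98.6% of those of the other 4 recurred elsewhere in the genome. Whether reads from related copies share these windows was not tested.

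**Figure D5:**
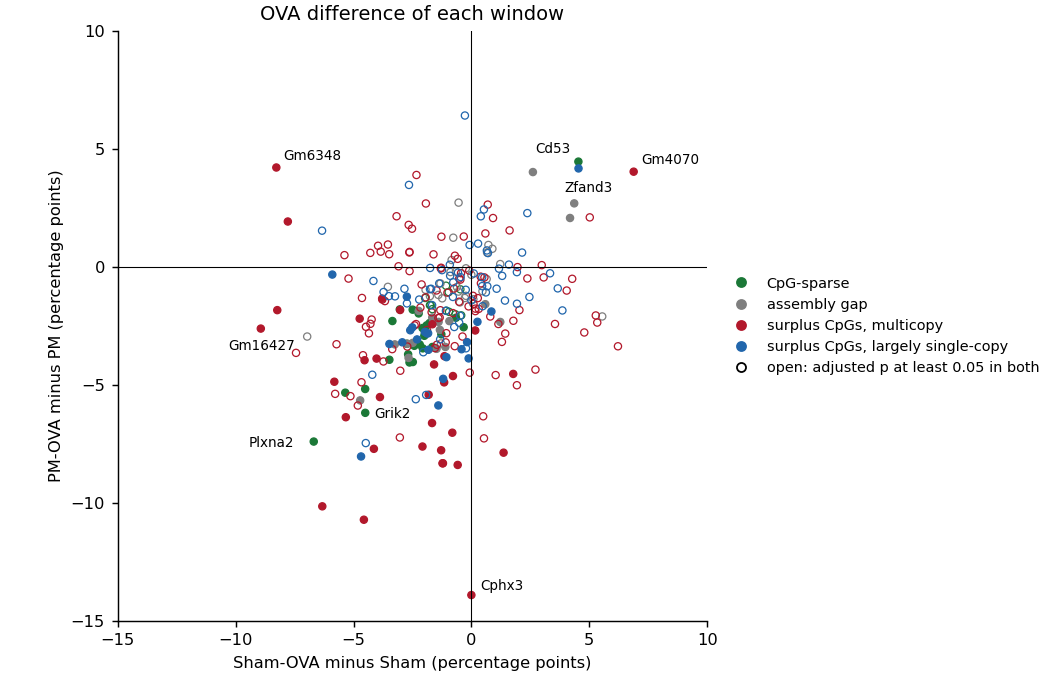
Difference after OVA in Sham offspring (x axis, percentage points) against that in PM offspring (y axis) for each of the 303 windows, coloured by kind, with filled points for an adjusted p under 0.05 in at least one comparison. CpG-sparse windows lie along a line through the lower left and Cd53, whereas multicopy windows scatter widely, with Cphx3 at -0.002 and -13.91 points and Gm6348 at -8.27 and 4.22 points.

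The differences in Sham and PM offspring rest on separate libraries. Across windows they were correlated with Pearson r = 0.90 (Spearman rho = 0.67) in the 37 CpG-sparse windows, 0.61 (0.62) in the 47 gap windows, 0.37 (0.40) in the 81 largely single-copy windows and 0.11 (0.11) in the 138 multicopy windows. These are descriptions without a test, because the windows share libraries and some share sequence. In the CpG-sparse kind, 36 of 37 windows were lower after OVA in each kind of offspring, where 85.4% and 92.8% of complete windows of 10 to 20 kb and 58.5% and 68.6% of all complete autosomal windows were.

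Among gene lists, the 28 windows of chemosensory receptors, here olfactory and vomeronasal genes whose symbol has a number right after the family name, gave 4 falls of 28 for OVA in Sham and 9 of 28 for OVA in PM with 0 rises, where 22.3% and 34.8% of all tested windows fell. The 8 windows of Vmn2r-ps pseudogenes are outside this list, and 1 of them fell for OVA in Sham and 0 for OVA in PM. The list's median differences were -1.32 and -1.83 points, beside -1.29 and -2.09 over the 2344 tested windows of that list. Of these, Olfr1119-ps1 (chr2:87341780-87362592) ranged from 62.7% to 66.6% in Sham and 59.7% to 62.9% in Sham-OVA (-3.35 points, adjusted p = 0.0021). Olfr493 (chr7:108331558-108352688) ranged from 65.5% to 66.9% in Sham and 62.8% to 65.4% in Sham-OVA without overlap (-2.42 points, 0.012), and its difference in PM was -3.34 points (0.00043). Olfr394 (chr11:73884656-73906093) ranged from 69.0% to 72.6% in PM and 67.0% to 68.9% in PM-OVA without overlap (-2.85 points, 0.0011). These olfactory windows are CpG-sparse, and their adjusted p-values are those of limma over all windows.

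A list named for neuronal adhesion, which also holds Sgcz, gave 6 windows in 5 genes (Cntnap2, Cntnap5a, Cntnap5b, Cdh18 and 2 windows of Sgcz), with 1 fall of 6 for OVA in Sham and 4 of 6 for OVA in PM, beside the same shares of 22.3% and 34.8%. The fall for OVA in Sham and 1 of those for OVA in PM were of Sgcz, which encodes a sarcoglycan, a part of a muscle membrane complex. It had a CpG-sparse window (chr8:37592671-37613716) at 65.0% to 70.6% in Sham and 62.4% to 68.0% in Sham-OVA (-3.04 points, 0.0032). A largely single-copy window of the same gene (chr8:37804319-37826469) stood near 44.3% in Sham and fell for OVA in PM (-2.75 points, 0.012). That call ended after centring of the libraries (adjusted p = 0.11). Cntnap5a, a contactin-associated protein gene, fell for OVA in PM (-3.39 points, 0.0038), although only 0.39% of its window lies in a gene. Of the glutamate and GABA receptor genes, Grik2 and Grm5 were present and both fell in both comparisons. Grm5, a metabotropic glutamate receptor, had a multicopy window with differences of -4.02 points (0.0017) and -3.88 points (0.0020). Of 48 other Grm5 windows, 35 fell and 0 rose for OVA in Sham, and 42 fell and 1 rose for OVA in PM. The leucocyte gene list had 1 window, Dock2, with differences of 0.72 and 0.94 points (0.58 and 0.40), whereas 61 of the 75 other Dock2 windows rose for OVA in Sham. Cd53 and Pstpip2, which leucocytes also express, are outside that list. The lung resident cell and voltage-gated channel lists had 0 windows of this length, of 2653 and 3075 tested windows.

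The other question was what maternal PM did. Without OVA, the mean over the 303 windows differed by -0.01 points between PM and Sham, and 0 windows passed an adjusted p of 0.05, against 0.0% of all tested windows, and 16 of the 303 had an unadjusted p under 0.05 in limma, against 5.79% of all tested windows. With OVA, the difference of PM-OVA from Sham-OVA was -0.73 points with overlapping libraries, 0 windows passed (0.0% of all tested windows) and 22 had an unadjusted p under 0.05 (5.96% of all tested windows). With centred libraries the differences were -0.31 points without OVA and -0.45 points with OVA. The interaction subtracts the OVA difference of Sham offspring from that of PM offspring. Its mean was -0.72 points, beside -0.66 over all complete autosomal windows, and it was -0.14 points with centred libraries. For it 0 windows passed (0.0% of all tested windows) and 19 had an unadjusted p under 0.05 (7.4% of all tested windows).

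The windows with the smallest p are given as values. For PM without OVA it was Gm6348, at 60.1% to 73.9% in PM against 75.1% to 85.6% in Sham, a difference of -10.61 points in which the groups did not overlap (adjusted p = 0.70, limma). For PM with OVA it was Gm4305 (chr10:100349072-100377243, multicopy), at 66.5% to 75.3% in PM-OVA against 73.1% to 78.8% in Sham-OVA, a difference of -4.45 points (0.79). For the interaction it was Traf5 (chr1:191998860-192053494), an adaptor of tumour necrosis factor receptors, whose gap window has 4635 sequenced bases. It had group means of 85.0%, 86.2%, 87.2% and 84.9% in Sham, Sham-OVA, PM and PM-OVA, an interaction of -3.55 points (0.55). None of the 3 differences held up against the number of windows tested.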

How the data were processed

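Enzymatic methyl-seq libraries of lung DNA were trimmed by the authors with Trim Galore and mapped and called against GRCm38 with the DRAGEN pipeline, and SeqMonk summarised the calls. The deposited values are percent methylation per window, averaged over called CpG cytosines with a set minimum of informative ones, without normalisation between libraries, counts or coverage. How many CpGs stand behind a value is therefore unknown here. The authors' count test could not be run on percentages.

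Sequence features came from GRCm38 and GENCODE M21, read with Python 3.11.15 and pysam 0.24.0. A CpG was recurring when the 100 bases around it occur exactly elsewhere in 65 chromosomes and scaffolds, on either strand. A window was tested with at least 3 values in every group. The percentages, with 1 point added to the methylated and the unmethylated share, were turned into log2 ratios, and 4 group means were fitted with limma 3.58.1 in R 4.3.3, with moderated 2-sided tests whose p-values were adjusted by Benjamini and Hochberg's method across the 259167 windows that entered. A DMR needed an adjusted p under 0.05 and at least 10 points. The code was tested on simulated data, and its statistics equalled those of limma's functions on 20000 windows. No 2 libraries were identical.

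The windows, gene lists and tests were chosen with earlier results of these data known, and the 4 kinds, the gene families and the alternatives by kind or without PM-OVA replicates 7 and 8 were chosen after seeing the data. Named windows, 1 per gene, were the 3 longest, the 3 lowest and 3 highest in Sham, up to 5 called falls and 5 called rises per OVA comparison, the smallest p of each other comparison, 2 on each side of the length limit and 2 per gene list and OVA comparison. Alternatives covered the scale, offset, centring, complete windows, prior, length limit, gaps, gene overlap, a replicate block and leaving out each library.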

Additional observations from a re-analysis of the deposited data

Results flagged for a closer look

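Of 168 groups of library values, 4 had 1 library whose gap to its nearest neighbour was large against the range of its group (Dixon's ratio, 95% critical value 0.568 for 7 and 0.526 for 8 libraries), where chance gives about 5%. In Gm16427, Sham replicate 7 stood at 73.1% against a group median of 61.7%, and the OVA fall of that window was no longer called without this library. In Gm4070, Sham-OVA replicate 6 stood at 93.1% against a median of 82.6%, and its rise remained called without that library. In Dock2, Sham-OVA replicate 7 stood at 85.0% against 89.3%. In the largely single-copy window of Sgcz, PM-OVA replicate 3 stood at 45.9% against 41.7%. None of the mean values over all 303 windows or over a kind was set apart in this way.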

How the results depend on the processing

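Of 1260 repeats of the 35 tested values of named windows, 1233 stayed on the same side of the threshold, 27 lost the call and 0 changed direction. The mean differences over the windows stayed within the pooled SD of 0.64 points between libraries, except that centring moved the mean for OVA in PM from -1.93 to -0.95 points and that the kinds differed: CpG-sparse windows gave -2.02 points for OVA in Sham and -2.64 for OVA in PM, and gap windows -1.16 for OVA in PM.

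Counts of windows with an adjusted p under 0.05 were 45 for OVA in Sham and 82 for OVA in PM. With a length limit of 15000 bp they were 768 and 1344 (of 2443 windows), with 30000 bp 15 and 22 (of 118), and with at least 50% of bases in a gene 27 and 42 (of 131), each out of a different number of windows. CpG-sparse, gap, multicopy and largely single-copy windows gave 17, 8, 12 and 8 for OVA in Sham and 24, 15, 25 and 18 for OVA in PM. Centring gave 53 for OVA in PM, and the cause was not tested. Leaving out 1 library gave 34 to 55 and 69 to 93, beside 80248 to 95829 and 105758 to 115002 of all tested windows. Leaving out PM-OVA replicates 7 and 8 together gave 73 for OVA in PM, beside 102975 of 259155 tested windows. DMR counts were 0 and 3. Leaving out 1 library gave 0 to 2 for OVA in Sham (2 without Sham replicate 2) and 2 to 4 for OVA in PM. With a minimum of 5 points they were 9 and 22. The share of all tested windows at that minimum was not counted, so these 2 counts have no background. For OVA in PM centring and the 30000 bp limit each gave 1, and the adjusted p limit of 1e-06 and the CpG-sparse, gap and largely single-copy kinds each gave 0. The maternal and interaction counts were 0 in all alternatives. Missing depth limits how single values of the multicopy windows can be read.

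The replicate numbers of the labels do not tie libraries together. Same-numbered libraries of different groups had a median correlation of 0.017 in their deviations (-0.070 to 0.130, 42 pairs), against -0.002 for other pairs. With the replicate block, 48 windows passed for OVA in Sham and 73 for OVA in PM. Of all 258503 windows tested with the block, 93459 and 108273 passed, beside 92210 and 114176 of 259167 without it. The mean differences with the block, fitted over the library means with the number as a term, were -1.21 and -1.86 points. The second differs from -1.93 because PM-OVA replicate 8 shares its number with no other library. The calls of Gm15922 for OVA in Sham and Gm3500 for OVA in PM ended with the block (adjusted p = 0.057 and 0.052).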
